A study of Mus musculus with 24 samples.

Results

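The 10 genes Lyz2, C1qa, C1qb, C1qc, Adgre1, Mrc1, Ccl6, Csf1r, Cd68 and Tyrobp, best known from macrophages, were followed through 24 poly(A) RNA libraries of mouse pluripotent cells. They were selected on measured values of these libraries, being high in cultures of the J1 line and near absent in a set of tet-off lines, so that difference is given here as a description, with no test. By gene symbol, 10 of the 23095 genes in the J1 table and 8 of the 25476 genes in the tet-off table were matched. C1qb and C1qc had no entry in the tet-off table.

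Macrophages are phagocytes of the innate immune system that live in almost every tissue, in the embryo as well as the adult. They depend on signals through the receptor Csf1r, and take up particles and dying cells, digest them in lysosomes, and release complement and chemokines. Pluripotent stem cells are not a usual source of this set of transcripts, but cultures grown on feeder layers hold other cells made from embryonic tissue.

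The study compares embryonic stem cells (ESCs) with 2 kinds of expanded or extended potential stem cells (EPSCs), named D-EPSCs and L-EPSCs after the protocols that make them. The J1 line is wild type, and its 6 libraries are 2 each of ESCs, D-EPSCs and L-EPSCs. The 18 tet-off libraries come from 3 lines, Oct4cKO, Sox2cKO and NanogcKO, with 2 libraries each of ESCs, L-EPSCs without doxycycline (Dox) and L-EPSCs with Dox. J1 ESCs were kept in serum with LIF, CHIR99021 and PD0325901, on mouse embryonic fibroblast feeders or on gelatin. D-EPSC medium was N2B27 with serum replacement, minocycline, dimethindene maleate, CHIR99021 and LIF. L-EPSC medium was DMEM/F12 with serum replacement, A-419259, CHIR99021, JNK inhibitor VIII, LIF, PD0325901, SB203580 and XAV939. The methods place EPSCs without feeders for several passages before RNA was taken, while the surface under the sequenced ESCs is not stated. In each tet-off line the named factor came from a transgene that Dox silences, in the ESC and untreated L-EPSC groups too, and the endogenous gene was deleted. Each tet-off line is a single cell line, so line and genotype cannot be told apart.

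Each library held between 10.8 M and 15.1 M reads on genes (M, mega), and the J1 libraries at least 11.6 M. Values are normalized counts, read counts divided by a size factor for each library, and whole reads were recovered from them. A gene with at most 3 reads in a library was taken as at the floor, which is up to 0.278 reads per M reads on genes (RPM) in the tet-off libraries. Intervals and floors cover counting error only. Whether the replicates are independent cultures is not stated, so p-values measure the spread between these libraries, which may be technical.

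The targeted genes checked the tet-off labels. Pou5f1, the gene of Oct4, had 6420 and 6316 normalized counts in untreated Oct4cKO L-EPSCs and 162 and 184 with Dox. Sox2 had 4966 and 4701 in untreated Sox2cKO L-EPSCs and 47 and 53 with Dox. Nanog had 9119 and 8847 in untreated NanogcKO L-EPSCs and 3166 and 3112 with Dox, so the loss in that line was partial in RNA. The study reported loss of the Nanog protein with Dox in this line, and these libraries do not measure protein. In the J1 libraries 10 pluripotency genes summed to 63315 and 63850 normalized counts in ESCs, 49130 and 48845 in D-EPSCs, and 59329 and 59118 in L-EPSCs, with Pou5f1 holding the most counts, so the defining markers of the labelled cells were present in every J1 library.

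The label under which the 10 genes were grouped held in part. Lyz2, C1qa, Adgre1, Ccl6 and Tyrobp were at or near 0 in the tet-off lines. Cd68 was not, with between 180 and 684 reads in all 18 tet-off libraries. Mrc1 reached 35 reads and Csf1r 60 reads in single tet-off libraries, so they were low there rather than absent. J1 and tet-off libraries differ in line and table and may differ in culture, the tables were normalized separately, and these cannot be told apart. The plot of the macrophage genes by library shows this split.

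**Figure D1:**
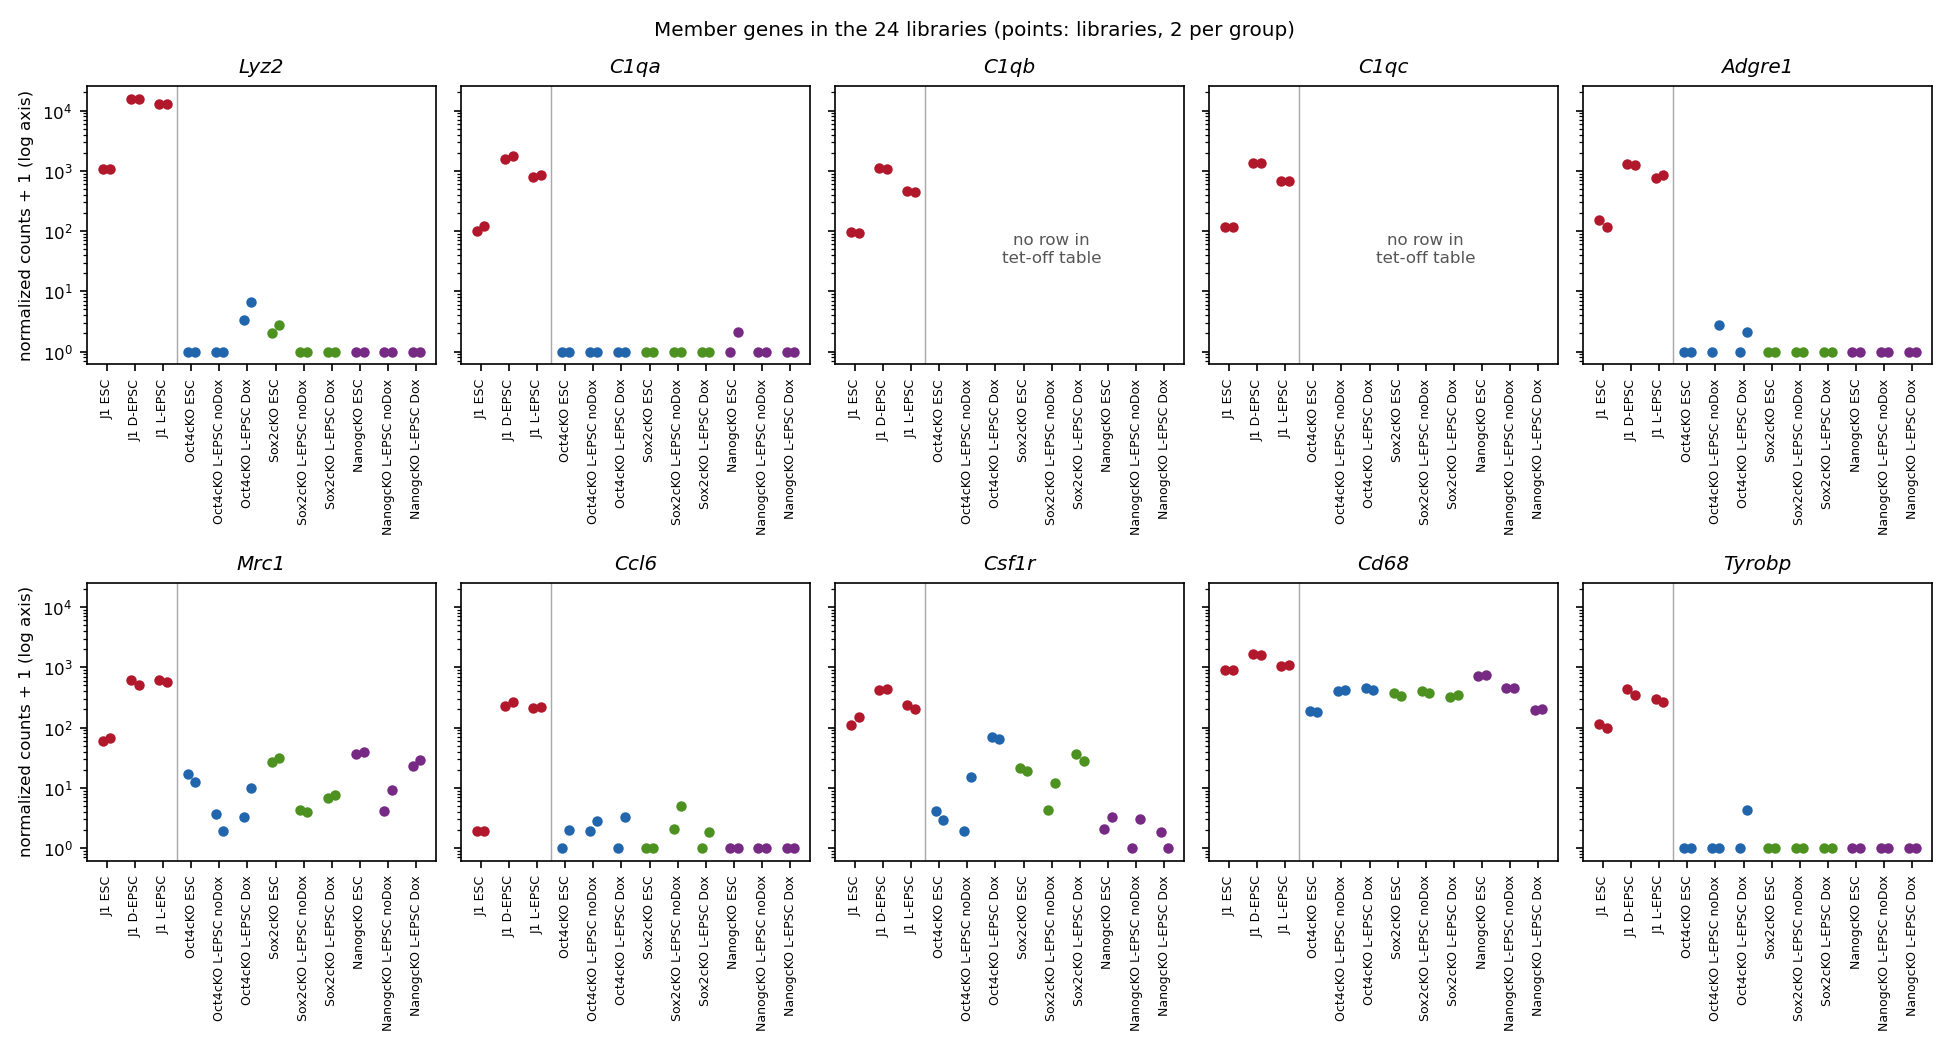
Normalized counts plus 1 (log axis) of the 10 macrophage genes in 24 libraries, each point a library, J1 in red to the left of the line and the tet-off lines to the right. Cd68 was well above 0 in all 18 tet-off libraries, Mrc1 and Csf1r were low there, and C1qb and C1qc had no entry in that table.

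Lyz2, the lysozyme that macrophages and other myeloid cells secrete to digest bacterial walls, was the most abundant of the 10 per length of exon in all 3 J1 states. Lyz2 had 1085 and 1068 normalized counts in ESCs, 15553 and 15802 in D-EPSCs, and 13018 and 12965 in L-EPSCs. The 3 states did not overlap, with ESCs lowest and D-EPSCs highest. Lyz2 was 14.6-fold higher in D-EPSCs than in ESCs (log2 fold change 3.86 ± 0.02 SE, adjusted p = 1.2e-10) and 12.1-fold higher in L-EPSCs than in ESCs (3.59 ± 0.02, adjusted p = 2.2e-10). Between L-EPSCs and D-EPSCs the log2 fold change of -0.27 ± 0.02 had an adjusted p of 9.2e-05 but lay inside the threshold of 0.6, so it was not called. Its close relative Lyz1, which Paneth cells express, had 0 counts in ESCs, 5.11 and 9.79 in D-EPSCs, and 9.25 and 9.19 in L-EPSCs. Of 50-base windows of the Lyz2 transcript 15.4% also occur in Lyz1, against 1.98% of 100-base windows and 0% of 150-base windows, so longer fragments tell the genes apart. Lyz2 (ENSMUSG00000069516) lies on the minus strand of NCBIM37 chr10:116714390-116719377.

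C1qa, C1qb and C1qc encode the chains of C1q, which starts the classical complement pathway and which tissue macrophages make in large amounts. The genes sit side by side on the minus strand of NCBIM37 chromosome 4, within 18675 bases, with C1qb (ENSMUSG00000036905) at chr4:136436044-136442102, C1qc (ENSMUSG00000036896) at chr4:136445719-136448980 and C1qa (ENSMUSG00000036887) at chr4:136451832-136454718. C1qa had 99.7 and 121 normalized counts in ESCs, 1565 and 1738 in D-EPSCs, and 796 and 856 in L-EPSCs. C1qb had 95.3 and 90.4 in ESCs, 1126 and 1073 in D-EPSCs, and 455 and 442 in L-EPSCs. The chains have to be made together, and the neighbouring genes had the same order of states. C1qc had 117 and 117 in ESCs, 1368 and 1344 in D-EPSCs, and 685 and 679 in L-EPSCs. For each chain the 3 states did not overlap. In D-EPSCs the chains were 15.0-fold, 11.8-fold and 11.6-fold higher than in ESCs for C1qa, C1qb and C1qc, and in L-EPSCs 7.49-fold, 4.84-fold and 5.83-fold higher. The log2 fold changes were 3.9 ± 0.1, 3.55 ± 0.07 and 3.52 ± 0.06 in D-EPSCs, with adjusted p of 1.1e-07, 4.2e-08 and 1.9e-08. L-EPSCs held less of each chain than D-EPSCs, at 0.5, 0.408 and 0.503 of the level, with adjusted p of 0.00024, 1.3e-05 and 1.7e-05. Lyz2 was at 0.829 of its D-EPSC level in the same L-EPSC libraries, so the C1q chains and Lyz2 were not in a fixed ratio across the EPSC states. The difference between these ratios was not tested.

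Csf1r, the receptor for the growth factors Csf1 and Il34 on which most macrophages depend, was among the least abundant of the 10 per length of exon. Csf1r had 111 and 150 normalized counts in ESCs, 419 and 440 in D-EPSCs, and 233 and 205 in L-EPSCs. The states did not overlap. It was 3.28-fold higher in D-EPSCs than in ESCs (log2 fold change 1.72 ± 0.15, adjusted p = 6e-05) and 1.67-fold higher in L-EPSCs (0.75 ± 0.15, adjusted p = 0.00487). The L-EPSC call did not hold with fewer libraries. It was lost without ESC replicate 1 (log2 fold change 0.54), without L-EPSC replicate 1 (0.66) and without L-EPSC replicate 2 (0.85). Csf1r (ENSMUSG00000024621, plus strand, NCBIM37 chr18:61265226-61291803) shares 871 exon bases, 16.7% of its exon length, with Hmgxb3 on the other strand, and how strand was used in counting is not stated, so some of its reads could belong to that gene.

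Adgre1 encodes F4/80, the surface protein most used to mark mouse macrophages. Adgre1 had 152 and 117 normalized counts in ESCs, 1300 and 1259 in D-EPSCs, and 752 and 846 in L-EPSCs. The states did not overlap, and the gene was 9.51-fold higher in D-EPSCs (log2 fold change 3.25 ± 0.12, adjusted p = 6e-07) and 5.94-fold higher in L-EPSCs (2.57 ± 0.12, adjusted p = 2.1e-06) than in ESCs. It lies on the plus strand of NCBIM37 chr17:57498109-57622952 (ENSMUSG00000004730), where the annotation calls it Emr1. Tyrobp encodes DAP12, the adaptor through which many myeloid receptors signal (ENSMUSG00000030579, plus strand, NCBIM37 chr7:31198807-31202596). Tyrobp had 114 and 98.7 in ESCs, 431 and 348 in D-EPSCs, and 301 and 261 in L-EPSCs. ESCs lay below both EPSC states without overlap, and the lowest D-EPSC library lay just above the highest L-EPSC library. Tyrobp was 3.66-fold higher in D-EPSCs (log2 fold change 1.86 ± 0.14, adjusted p = 2.8e-05) and 2.64-fold higher in L-EPSCs (1.39 ± 0.14, adjusted p = 0.00013) than in ESCs.

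Mrc1, the mannose receptor CD206 of scavenging tissue macrophages, had another order (ENSMUSG00000026712, plus strand, NCBIM37 chr2:14151041-14253684). Mrc1 had 59.3 and 66.4 normalized counts in ESCs, 626 and 502 in D-EPSCs, and 613 and 573 in L-EPSCs. D-EPSCs and L-EPSCs overlapped, and both lay above ESCs. It was 8.97-fold higher in D-EPSCs (log2 fold change 3.14 ± 0.12, adjusted p = 8.1e-07) and 9.44-fold higher in L-EPSCs (3.22 ± 0.12, adjusted p = 7.7e-07), and the log2 fold change between the EPSC states was 0.08 (adjusted p = 0.672).

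Ccl6, a chemokine that rodent macrophages and other myeloid cells release (ENSMUSG00000018927, minus strand, NCBIM37 chr11:83401384-83406589), was the gene nearest to absent in J1 ESCs. Ccl6 had 1 read in each ESC library, 224 and 263 normalized counts in D-EPSCs, and 207 and 221 in L-EPSCs. ESCs were at the floor and all 4 EPSC libraries far above it. From 2 ESC reads in all, the ratio of D-EPSCs to ESCs was 281, with a 95% counting interval of 77.3 to 2325, and that of L-EPSCs to ESCs was 238 (65.4 to 1970). Ccl6 was already known from earlier results of these data to be among the genes that differ most from ESCs, so these ratios have no test and the gene is left out of the counts against ESCs. Its log2 fold change between L-EPSCs and D-EPSCs was -0.18 ± 0.23 (adjusted p = 0.595).

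Cd68, a lysosomal membrane protein that is abundant in macrophages but also made at lower levels by other cells, moved least against ESCs (ENSMUSG00000018774, minus strand, NCBIM37 chr11:69477715-69479655). Cd68 had 889 and 906 normalized counts in ESCs, 1646 and 1632 in D-EPSCs, and 1035 and 1089 in L-EPSCs. The states did not overlap, but the steps between them were small. It was 1.83-fold higher in D-EPSCs than in ESCs (log2 fold change 0.87 ± 0.04, adjusted p = 3.3e-06), and its 1.18-fold difference in L-EPSCs (0.24, adjusted p = 0.00311) lay inside the threshold.

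Per kilobase of exon and M reads on genes, the mean levels in D-EPSCs ran from 924 for Lyz2 through 123 for C1qa, 101 for Cd68, 78.2 for C1qb, 54.4 for C1qc, 53.4 for Tyrobp, 30.5 for Adgre1, 10.5 for Ccl6 and 7.34 for Mrc1 to 6.35 for Csf1r. C1qc and Tyrobp cannot be ranked there, nor can Mrc1 and Csf1r, since the libraries of Tyrobp and of Mrc1 differ by more than the gap to the neighbour. In ESCs Lyz2 at 60.6 and Cd68 at 52.7 stood far above the next gene, Tyrobp at 13.9. In L-EPSCs Lyz2 was at 742, followed by Cd68 at 63.4 and C1qa at 59.5, which cannot be ranked for the same reason. Thus Lyz2 stood apart from the rest in both EPSC states and close to Cd68 in ESCs.

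Against ESCs, 9 of the 9 tested macrophage genes were called higher in D-EPSCs and 0 lower, at an adjusted p under 0.05 in limma and a log2 fold change beyond 0.6. Of all 21533 genes tested, 10.8% were called higher in that comparison and 9.98% lower. The median log2 fold change of the 9 genes was 3.25, against 0.01 over all genes above the floor in both groups. In L-EPSCs 8 of the 9 were called higher than in ESCs and 0 lower, with Cd68 the exception, beside 8.8% of all genes higher and 11.5% lower. Here the median was 2.53, against 0 over all genes. The shares lay far above the background in both comparisons, but the genes were picked with earlier results of these libraries known, and both comparisons use the same ESC libraries, so the excess is a description. In bulk RNA, more cells of a type and more RNA per cell cannot be told apart, nor can fewer cells and less RNA.

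Between the EPSC states, 6 of the 10 genes were called below their D-EPSC level in L-EPSCs and 0 above them, namely C1qa, C1qb, C1qc, Adgre1, Csf1r and Cd68. Of all genes tested 8.58% were called lower and 4.8% higher, and the median log2 fold change was -0.65 for the 10 genes and 0.01 over all genes. Adgre1 fell by 0.68 (adjusted p = 0.00375), Csf1r fell by 0.97 (adjusted p = 0.00195) and Cd68 fell by 0.63 (adjusted p = 3.8e-05) on the log2 scale. Without any 1 library of either state 4 genes were called. The Adgre1 call was lost without each of the 4 libraries in turn (log2 fold change -0.60 and -0.77 without L-EPSC replicates 1 and 2, -0.66 and -0.70 without D-EPSC replicates 1 and 2). The Csf1r call was lost without L-EPSC replicate 2 (-0.88) or D-EPSC replicate 1 (-1.01) or 2 (-0.94), and that of Cd68 without L-EPSC replicate 1 (-0.59). With a log2 threshold of 1 in place of 0.6, 1 gene, C1qb, was called. The calls of the C1q chains thus held with any library left out. Those of Adgre1 and Csf1r were mostly lost at a fold change little altered, with fewer libraries in the test. C1qa and C1qc lost theirs at the threshold of 1.

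**Figure D2:**
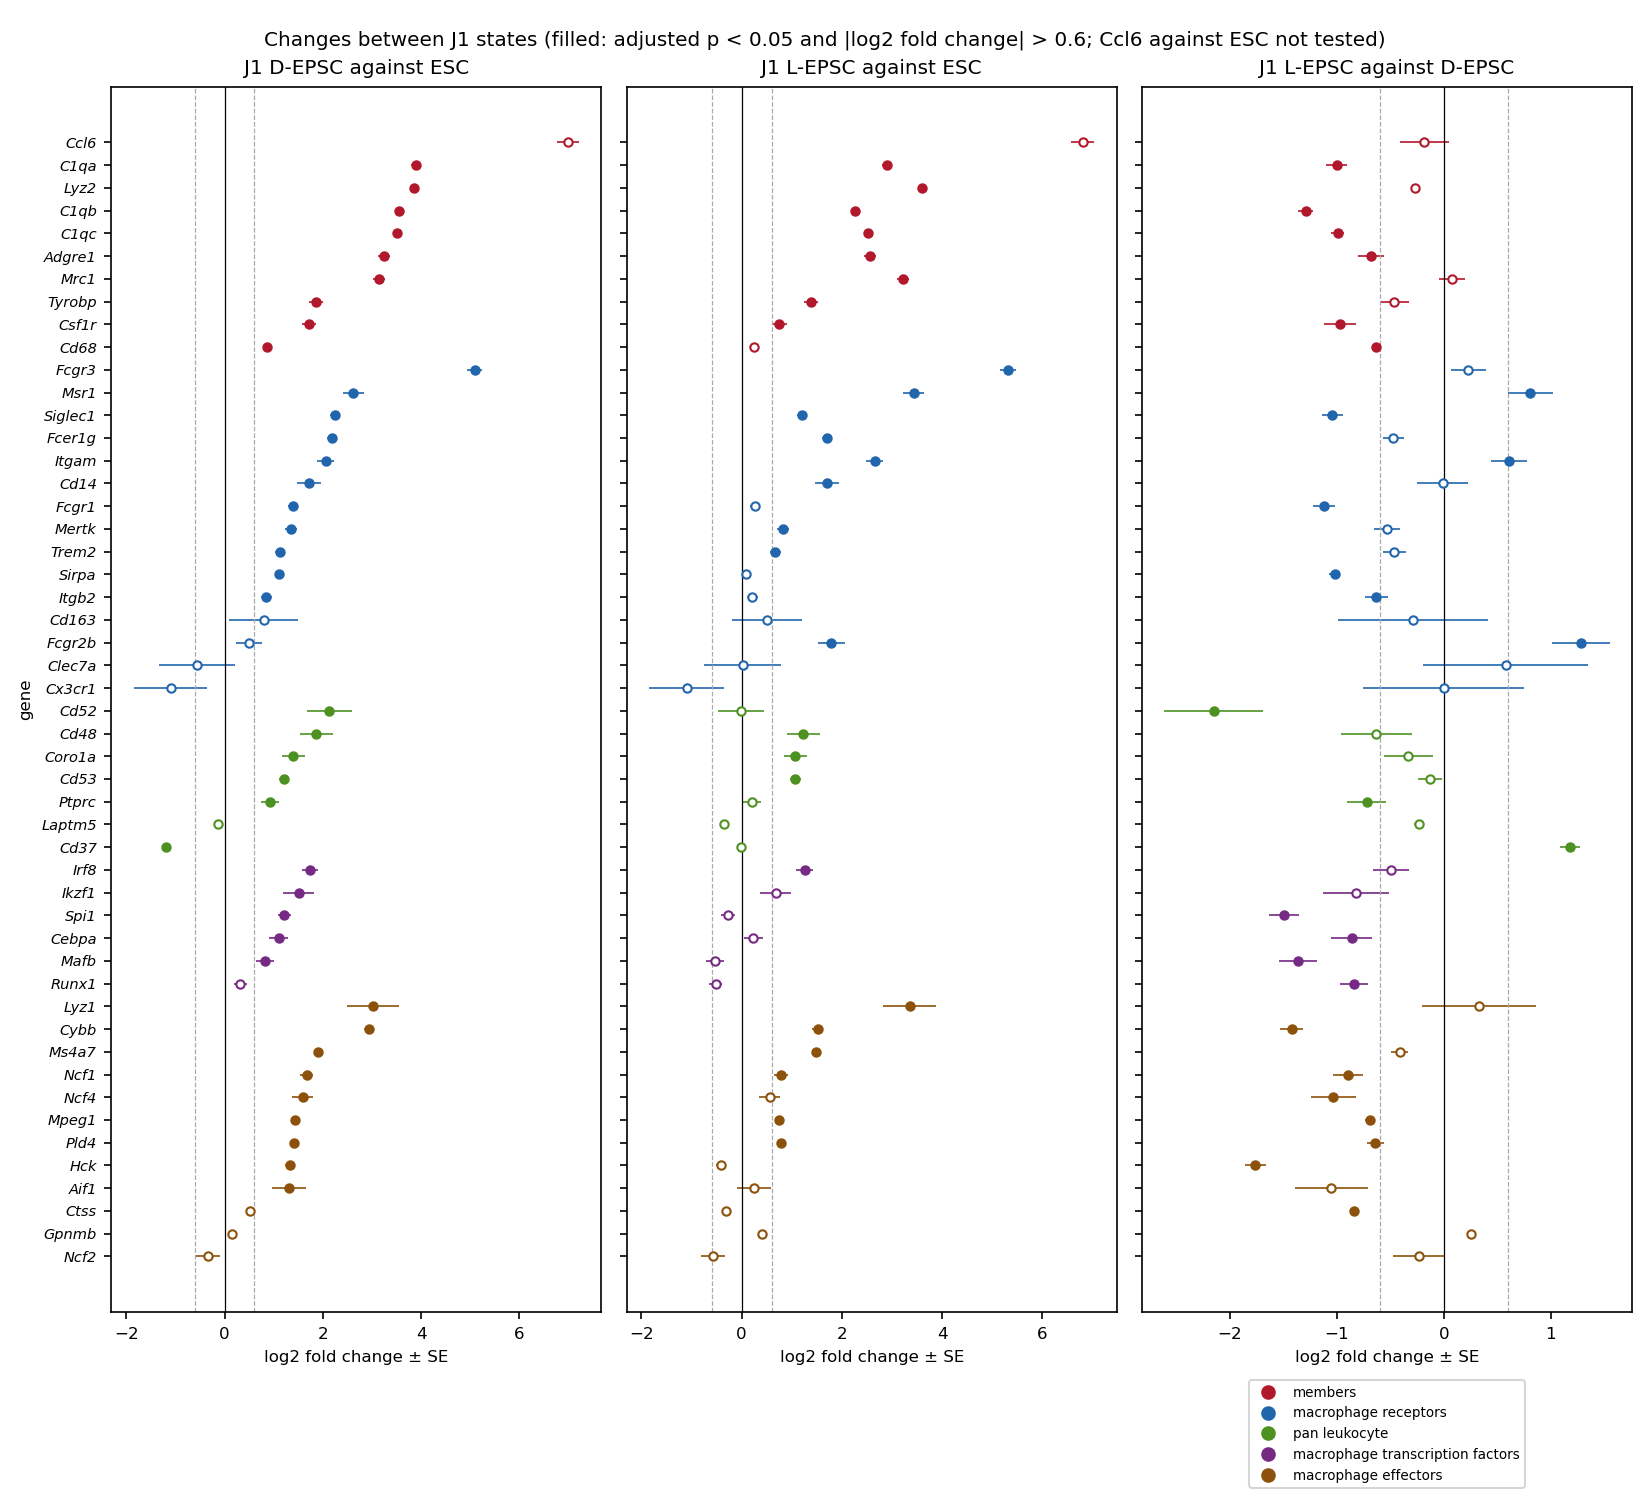
Log2 fold change with its standard error between J1 states for the 10 macrophage genes (red) and 40 other macrophage genes by list, filled points being called genes; Ccl6 against ESCs has no test. Of the red genes other than Ccl6, 9 were called higher in D-EPSCs than in ESCs, 8 in L-EPSCs than in ESCs, and 6 below the D-EPSC level in L-EPSCs.

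Summed over the 10 genes, the normalized counts were 2723 and 2735 in ESCs, 24258 and 24400 in D-EPSCs, and 18095 and 18137 in L-EPSCs. Lyz2 supplied most of this sum in the EPSC states. Without Lyz2, a sum added after the values had been seen, the others held 1638 and 1667 in ESCs, 8705 and 8598 in D-EPSCs, and 5077 and 5173 in L-EPSCs. Over the 10 genes D-EPSCs held 8.91 times the sum of ESCs, and L-EPSCs 6.64 times that of ESCs and 0.745 of that of D-EPSCs. The order of the states was the same in both sums.

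In the tet-off lines the same genes were measured in 18 libraries. Lyz2 had 0 reads in 14 of the 18 libraries and at most 5, in Oct4cKO L-EPSCs with Dox. C1qa had 0 in 17 and at most 1, Adgre1 0 in 16 and at most 2, and Tyrobp 0 in 17 and at most 3. These genes, whose near absence was part of the choice, were thus at or near the floor in every group of every line. Ccl6 had 0 in 11 and at most 4. A count of 0 allows up to 3 reads, so levels under 0.278 RPM were not detectable. L-EPSCs of the tet-off lines therefore did not show the Lyz2, C1qa, Adgre1 and Tyrobp levels of J1 L-EPSCs, though both are labelled L-EPSCs. Line, table and culture cannot be told apart.

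Cd68 was expressed in all 18 tet-off libraries and differed among the lines. In Oct4cKO it had 188 and 181 normalized counts in ESCs and 398 and 428 in L-EPSCs, and rose by 1.16 on the log2 scale (adjusted p = 2e-09). In NanogcKO it had 715 and 756 in ESCs, 449 and 457 in L-EPSCs, and 196 and 204 with Dox. There it fell by 0.7 from ESCs to L-EPSCs (adjusted p = 1e-06) and fell by 1.18 with Dox (adjusted p = 9.1e-09), without overlap between the groups. In Sox2cKO it had 368 and 335 in ESCs, 405 and 371 in L-EPSCs, and 323 and 341 with Dox, with log2 fold changes of 0.14 (adjusted p = 0.17) and -0.22 (adjusted p = 0.0267), neither of them called. A macrophage gene list that includes Cd68 therefore carries signal in these lines where Lyz2, C1qa, Adgre1 and Tyrobp do not.

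Mrc1 was low in the tet-off lines, and L-EPSCs there held less than ESCs, opposite to J1. It had 15.7 and 11.6 normalized counts in Oct4cKO ESCs against 2.66 and 0.898 in L-EPSCs, a log2 fold change of -2.46 (adjusted p = 0.00176). In Sox2cKO it had 26.2 and 30.3 against 3.24 and 2.99, a log2 fold change of -2.83 (adjusted p = 0.00073). In NanogcKO it had 35.5 and 38.1 against 3.2 and 8.16, a log2 fold change of -2.61 (adjusted p = 0.00112). ESCs and L-EPSCs did not overlap in any of the 3 lines. The L-EPSC libraries of Oct4cKO and Sox2cKO held at most 3 reads, at the floor, so the sizes of those log2 fold changes are uncertain. With Dox, NanogcKO L-EPSCs had 22 and 28.1, a log2 fold change of 2.06 (adjusted p = 0.0125) that was lost without untreated replicate 1 (1.5) or Dox replicate 2 (1.89). The opposite signs in J1 and in the tet-off lines were not tested against each other, since the tables were fitted apart.

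Csf1r responded to Dox in Oct4cKO. It had 0.887 and 14.4 normalized counts in untreated Oct4cKO L-EPSCs and 69.1 and 64.4 with Dox, a log2 fold change of 3.65 ± 0.83 (adjusted p = 0.00164). The Dox libraries lay above the untreated ones, which differed widely from each other. The call held with any library left out, but its size did not, at 2.14 without untreated replicate 1 and 5.16 without untreated replicate 2. In Sox2cKO it had 3.24 and 11 untreated and 35.5 and 27 with Dox, and the log2 fold change of 2.16 (adjusted p = 0.0487) was lost without untreated replicate 1 (1.42), Dox replicate 1 (1.97) or Dox replicate 2 (2.36), and with TMM scaling or a pseudocount of 0.1. In NanogcKO it was at or under 3 reads in each library. The macrophage transcription factors Spi1 (PU.1), which drives the lineage and Csf1r, and Cebpa, which primes myeloid fate, were picked from the 6 factors after their values had been seen. Among the other factors Runx1 was called higher with Dox in Oct4cKO, Ikzf1 lower in Oct4cKO and Sox2cKO, and Irf8 lower in NanogcKO, so the list did not move as a whole. In Oct4cKO Spi1 had 31.9 and 19.8 untreated and 104 and 102 with Dox (log2 fold change 1.99, adjusted p = 0.00424, lost with a pseudocount of 0.1). Cebpa had 101 and 75.5 untreated and 377 and 322 with Dox there (1.98, adjusted p = 1.4e-05), and was also called higher with Dox in Sox2cKO (2.5, adjusted p = 1.3e-06) and NanogcKO (1.49, adjusted p = 0.00067). Spi1 was called there too, in Sox2cKO (1.36, adjusted p = 0.0455, lost with a pseudocount of 0.1, with the replicate block, and without untreated replicate 1 at 1.33, untreated replicate 2 at 1.38 or Dox replicate 1 at 0.95) and at the floor in NanogcKO (1.49, adjusted p = 0.0437, lost in edgeR and DESeq2, with the block or the 2 groups alone, and without untreated replicate 1 at 0.98, Dox replicate 1 at 1.62 or Dox replicate 2 at 1.35). In the same Oct4cKO Dox libraries C1qa had 0 reads, Adgre1 at most 1 and Tyrobp at most 3.

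Of the 8 genes with a tet-off entry, 7 had enough reads to be tested. Between L-EPSCs and ESCs 2 of 7 were called in Oct4cKO, 3 in Sox2cKO and 2 in NanogcKO, beside 28.4%, 19.6% and 26.9% of all genes tested. With Dox 2 of 7 were called in Oct4cKO, 1 in Sox2cKO and 2 in NanogcKO, beside 27.9%, 23.2% and 9.94% of all genes. With 7 genes a share is too coarse to be read against these backgrounds. Calls of Lyz2 and Ccl6 between Sox2cKO L-EPSCs and ESCs, and of Lyz2 with Dox in Oct4cKO, rest on at most 5 reads a library and were lost in edgeR and DESeq2. The median log2 fold change over tet-off genes above the floor is not given, since at most 2 of the 7 genes qualified in each comparison.

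Other macrophage genes were read from 4 fixed lists of 40 genes in all, joined after their values had been seen. In D-EPSCs 30 of the 40 were called higher than in ESCs and 1, Cd37, lower, beside 10.8% and 9.98% of all genes, with a median log2 fold change of 1.36 against 0.01 over all genes. In L-EPSCs 19 of the 40 were called higher than in ESCs and 0 lower, beside 8.8% and 11.5%, with a median of 0.67. From D-EPSCs to L-EPSCs 17 were lower and 4, Cd37, Fcgr2b, Itgam and Msr1, were higher, beside 8.58% and 4.8%, with a median of -0.63. The medians of this wider set thus lay below those of the 10 genes against ESCs and next to theirs between the EPSC states, and these differences were not tested. Without D-EPSC replicate 1 or 2, 12 were called in that comparison, and 11 with a log2 threshold of 1. Summed, the 40 genes held 13276 and 13380 normalized counts in ESCs, 21796 and 22112 in D-EPSCs, and 17924 and 17970 in L-EPSCs.

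Among 15 surface receptors, 11 rose in D-EPSCs and 9 in L-EPSCs against ESCs, beside 10.8% and 8.8% of all genes, the shares against which the rises in the lists below are also to be read. Fcgr3, a low-affinity receptor for antibody, had 7.19 and 8.3 normalized counts in ESCs, 301 and 291 in D-EPSCs, and 329 and 368 in L-EPSCs. It was low in ESCs and close in both EPSC states. Fcgr3 was also called higher in L-EPSCs than in ESCs in Oct4cKO (2.09 and 0.967 against 36.4 and 34.1) and Sox2cKO (3.03 and 1.73 against 25.9 and 28.9). It was not called in NanogcKO (4.18 and 1.12 against 3.2 and 4.08). Lyz2, C1qa, Adgre1 and Tyrobp were near 0 in all these lines, so Fcgr3 did not follow them in Oct4cKO and Sox2cKO. Msr1, a scavenger receptor, had 56.6 and 95.9 in ESCs, 489 and 432 in D-EPSCs, and 797 and 813 in L-EPSCs. L-EPSCs held more of it than D-EPSCs (log2 fold change 0.81, adjusted p = 0.0225), a call lost without any of the 4 libraries (0.82 and 0.79 without L-EPSC replicates 1 and 2, 0.90 and 0.72 without D-EPSC replicates 1 and 2). Cd163 and Cx3cr1, which mark some tissue macrophages, had at most 2.04 and 3.59 normalized counts in any J1 library. The set of macrophage receptors was therefore incomplete in J1.

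Leukocyte and effector genes differed widely in how they moved. Of 7 pan-leukocyte genes 5 rose in D-EPSCs and 3 in L-EPSCs, beside 10.8% and 8.8% of all genes. Ptprc, which encodes CD45 on nearly all leukocytes, had 93.5 and 112 normalized counts in ESCs, 186 and 203 in D-EPSCs, and 99.7 and 138 in L-EPSCs. It was called higher in D-EPSCs than in ESCs (log2 fold change 0.92, adjusted p = 0.00508, lost without any of the 4 libraries, at 0.79 and 1.05 without ESC replicates 1 and 2, 0.98 and 0.86 without D-EPSC replicates 1 and 2) and overlapped between L-EPSCs and ESCs. The L-EPSC libraries thus held much more Lyz2 than the ESC libraries at a like level of Ptprc. Of the same list Cd48, Cd53 and Coro1a were called higher in L-EPSCs than in ESCs, at 2.34-fold, 2.12-fold and 2.16-fold. Cd37, Cd52 and Laptm5 were not called there, so Ptprc does not stand for the list. Of 12 effector genes 9 rose in D-EPSCs and 6 in L-EPSCs against the same shares, while Gpnmb, a glycoprotein of lysosomes, had 5485 and 5442 in ESCs, 6055 and 6059 in D-EPSCs, and 7257 and 7136 in L-EPSCs, with no call. Laptm5, a lysosomal protein of blood cells, had 1476 and 1545 in J1 ESCs and 1906 and 1842 in Oct4cKO ESCs, so it is expressed in lines where C1qa and Adgre1 are near 0. Of the 39 genes of the joined lists in the tet-off table, 31 had over 3 reads in some tet-off library and 8 did not. Some of the 31 barely passed, with at most 4 reads of Fcgr1 and of Clec7a, while Laptm5 reached 2200. Gpnmb lay between 9.59 and 140 normalized counts there. The 39 genes summed to between 983 and 3808 in the tet-off libraries, and the 40 to between 13276 and 22112 in J1, in tables normalized separately.

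Of the 6 lineage transcription factors, 5 rose in D-EPSCs and 1, Irf8, in L-EPSCs, and 4 stood below the D-EPSC level in L-EPSCs, beside 10.8%, 8.8% and 8.58% of all genes. Spi1 had 84.5 and 91.3 normalized counts in J1 ESCs, 202 and 209 in D-EPSCs, and 74.0 and 71.3 in L-EPSCs. It rose in D-EPSCs (log2 fold change 1.22, adjusted p = 0.00026) and was not called in L-EPSCs (-0.27, adjusted p = 0.164). Irf8, which acts with PU.1, had 34.1 and 35.0 in ESCs, 113 and 123 in D-EPSCs, and 83.3 and 85.0 in L-EPSCs. So in J1 the rise of Lyz2, the C1q chains, Adgre1 and Mrc1 in L-EPSCs came with more Irf8 and without more Spi1. Irf8 also had between 28.9 and 156 normalized counts in all 18 tet-off libraries, where Lyz2 was near 0. It was highest in untreated NanogcKO L-EPSCs, at 156 and 142 against 55.4 and 50.4 in their ESCs. A link of Irf8 to these genes was not tested.

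In the joined lists the tet-off lines had 14, 8 and 11 of 38 tested genes called between L-EPSCs and ESCs in Oct4cKO, Sox2cKO and NanogcKO, beside 28.4%, 19.6% and 26.9% of all genes tested. Of these 5, 5 and 4 were higher and 9, 3 and 7 lower, and of all genes 3118, 1918 and 2928 were higher and 3704, 2795 and 3529 lower, so the counts lay near the background in Sox2cKO and NanogcKO. With Dox 15, 14 and 9 were called, beside 27.9%, 23.2% and 9.94% of all genes, with 6, 6 and 3 higher and 9, 8 and 6 lower. Of all 24007 genes 3126, 2921 and 1240 were higher and 3573, 2647 and 1146 lower with Dox. The direction of these few genes was not tested. The Sox2cKO count with Dox was 9 when genes averaging under 10 normalized counts were left out, and the NanogcKO count was 5 without Dox replicate 1.

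The ligands of Csf1r followed the receptor in part. Csf1 had 927 and 924 normalized counts in J1 ESCs, 1389 and 1326 in D-EPSCs, and 647 and 644 in L-EPSCs, and was called between the EPSC states only (log2 fold change -1.07, adjusted p = 3.2e-06), where it was at 0.475 of its D-EPSC level and Csf1r at 0.51. Il34, the other ligand, had 383 and 409 in ESCs, 23.5 and 27.4 in D-EPSCs, and 23.6 and 41.4 in L-EPSCs, and was lower in both EPSC states (-3.91, adjusted p = 1.8e-05, and -3.62, adjusted p = 2.7e-05). Of the 9 chemokines other than Ccl6, 9 rose in D-EPSCs and 6 in L-EPSCs, beside 10.8% and 8.8% of all genes. Their sums were 903 and 910 in ESCs, 4077 and 4219 in D-EPSCs, and 1725 and 1730 in L-EPSCs, with Ccl2, which attracts monocytes, holding the most counts. Ccl9, a relative of Ccl6, had 57.5 and 55.3 in ESCs, 373 and 440 in D-EPSCs, and 412 and 411 in L-EPSCs, a level shared by the EPSC states as for Ccl6. Of 10 further complement genes, 5 rose in D-EPSCs, and in L-EPSCs 2 rose, the anaphylatoxin receptors C3ar1 and C5ar1, and 6 fell, beside 10.8% of all genes higher in D-EPSCs, and 8.8% higher and 11.5% lower in L-EPSCs. C3, the central complement protein, had 515 and 467 in ESCs, 841 and 959 in D-EPSCs, and 59.6 and 54.0 in L-EPSCs. In L-EPSCs the C1q chains thus stood above their ESC level while C3 stood below it.

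Fibroblast genes, which a feeder layer would bring, had a summed level with another order of states, carried by collagens. All 14 of 14 had over 3 reads in each J1 library. Their sums were 94795 and 97195 normalized counts in ESCs, 59737 and 59924 in D-EPSCs, and 20272 and 20843 in L-EPSCs, with Col1a1, a chain of type I collagen, the most abundant. In the tet-off lines the sums lay between 291 and 926. The fibroblast sum was therefore high in J1 and low in the tet-off lines, where 13 of the 14 genes had an entry. Not every gene followed the sum. In single tet-off libraries Thy1 reached 378 reads and Pdgfrb 404, against 295 and 509 over both J1 L-EPSC libraries. Within J1 the fibroblast sum was highest in ESCs, where the macrophage genes were lowest. Against ESCs 4 rose and 3 fell in D-EPSCs, and 0 rose and 10 fell in L-EPSCs by limma, beside 10.8% and 9.98%, and 8.8% and 11.5%, of all genes. The genes that rose in D-EPSCs, Dcn, Mgp, Thy1 and Twist2, did so along with the macrophage genes, those that fell were Col1a1, Col1a2 and Postn, and the median of the list was -0.08, so the order of the sum is not that of each gene. From D-EPSCs to L-EPSCs 12 fell, beside 8.58% of all genes. Whether fibroblasts, macrophages or other cells in the J1 cultures, or the pluripotent cells themselves, were the source of the macrophage transcripts was not tested.

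**Figure D3:**
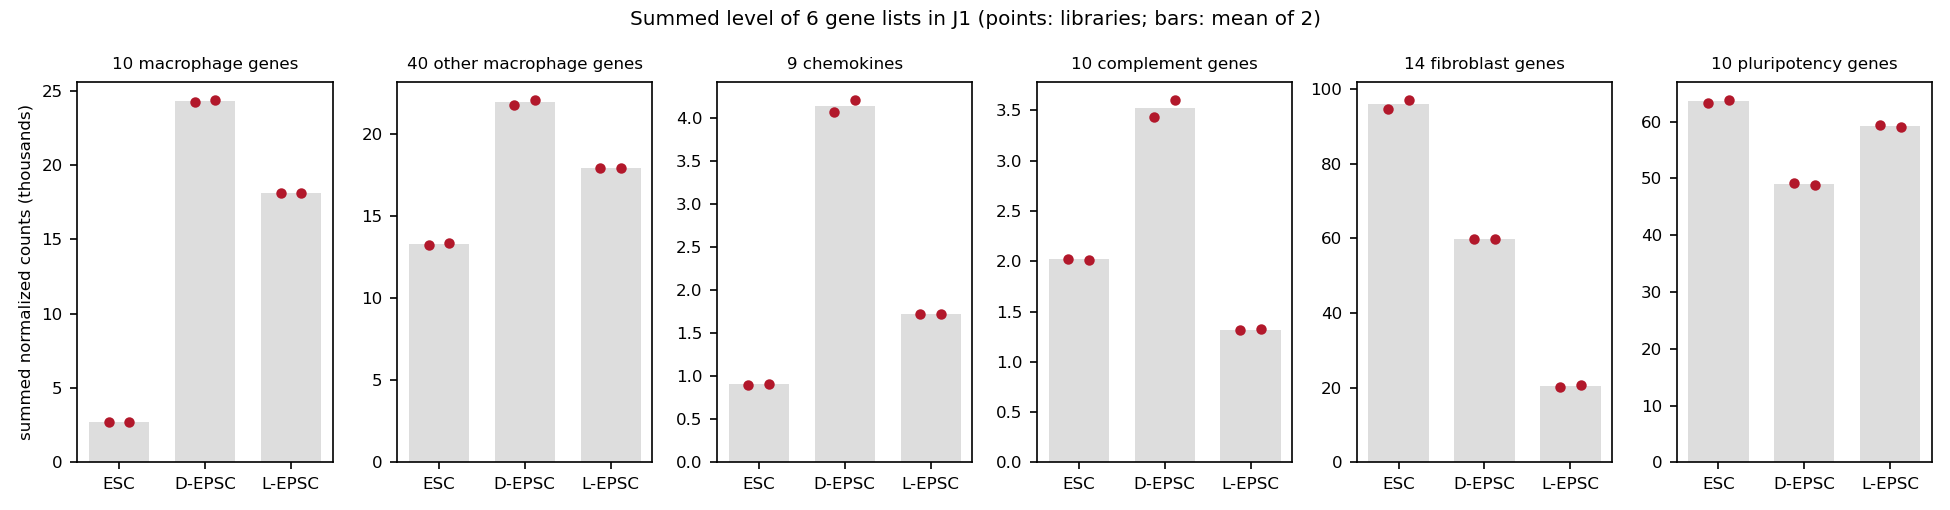
Summed normalized counts of 6 gene lists in J1, points being libraries and bars the mean of 2. The macrophage sum was 24258 and 24400 in D-EPSCs against 2723 and 2735 in ESCs, while the fibroblast sum was highest in ESCs.

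Markers of other blood cells were low in J1. Of 8 neutrophil markers 6 had an entry, and they summed to between 2.06 and 12.7 normalized counts in the J1 libraries. S100a8 was the most abundant, alone or tied, in 4 of 6. Of 5 mast cell markers 3 had an entry and summed to at most 3.69. Of 5 dendritic cell markers 4 had an entry and summed to between 18.9 and 64.4, mostly Zbtb46, with Flt3 at 0 in 4 of 6 libraries. Zbtb46 had 14.4 and 18.4 in ESCs, 22.5 and 28.4 in D-EPSCs, and 49.3 and 54.0 in L-EPSCs, where it was called above both other states, and Itgax was called above ESCs in both EPSC states at no more than 10.3. Neutrophil and mast cell markers were thus near 0 where Lyz2 was abundant, while 2 dendritic cell markers were present at low levels and higher in L-EPSCs than in ESCs. Zbtb46 also had between 53.3 and 145 in all 18 tet-off libraries, where Lyz2 was near 0. Of 7 T and NK cell markers 5 had an entry (17.2 to 57.2, mostly Cd3e), of 5 B cell markers 4 (10.8 to 48.9, Cd79b leading in ESCs), and of 8 erythroid and megakaryocyte markers 6 (28.8 to 40.8, Itga2b or Klf1 leading). These sums lay below the 2723 of the macrophage genes in ESCs. Those genes were chosen for being high in J1 and the lists differ in size, so the sums do not compare cell types. The part of these blood cells in the result was not tested.

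Other tissues gave middling sums. The 9 muscle markers summed to 4535 and 4549 normalized counts in ESCs, 1645 and 1615 in D-EPSCs, and 1440 and 1402 in L-EPSCs, with Acta2 the most abundant. The 7 endothelial markers lay between 1155 and 1559, mostly Eng, while Cdh5, Tie1 or others were at 0 in some libraries. The 5 cartilage markers had 87.2 and 116 in ESCs, 226 and 211 in D-EPSCs, and 152 and 141 in L-EPSCs, with Acan or Col2a1 leading. The 6 primitive endoderm markers had 191 and 195 in ESCs, 686 and 701 in D-EPSCs, and 635 and 673 in L-EPSCs, mostly Dab2, an adaptor protein that macrophages also express. The cartilage and primitive endoderm sums had the order of the macrophage genes. For primitive endoderm this rests on Dab2, since the defining factor Gata4 had 4.08 and 7.83 in D-EPSCs and 55.5 and 55.2 in L-EPSCs. The part of these cells in the result was not tested.

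The genes most like the macrophage genes in pattern were named by Pearson's r, over 24 libraries, of log2 RPM with the mean of the 8 macrophage genes present in both tables; 10 had been planned, before C1qb and C1qc were found to lack an entry. Among 13701 genes the 15 highest outside the macrophage genes themselves were Cd48, Tm4sf1, Mmp3, C5ar1, Tlr13, Cd93, Ugt1a7c, Ccl9, Fcgr1, Il18rap, Ms4a7, Ifi204, Il21r, S100a4 and Ccl2, with r from 0.989 to 0.975. Each of the 8 macrophage genes is part of that mean, so its own values raise its r. Of these genes Lyz2, Adgre1, C1qa and Tyrobp had r of 0.995, 0.993, 0.992 and 0.989. Ccl6, Mrc1, Csf1r and Cd68 had lower r than the 15, at 0.897, 0.877, 0.841 and 0.831. The libraries fall into J1 and tet-off, so r describes that step and was given no test. Of the 15, Cd48, C5ar1, Ccl9, Fcgr1, Ms4a7 and Ccl2 belong to the fixed macrophage, complement or chemokine lists.

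Of 14187 genes with an entry in both tables and at least 10 normalized counts on average in J1, 136, or 0.959%, had at most 3 reads in each tet-off library. Adgre1, C1qa and Tyrobp were among them, a share of the 8 that the choice of genes fixed. So were 6 of 35 other macrophage genes at that J1 level, Aif1, Cd48, Cd53, Ms4a7, Ncf4 and Ptprc, and 4 of 13 fibroblast genes, Col3a1, Lum, Prrx1 and Twist2. Both kinds of gene thus had members that J1 cultures expressed and the tet-off lines did not, at this depth.

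Promoters are shown for C1qb and C1qc because these neighbours moved together in J1, and because PU.1, the product of Spi1, binds purine-rich sites in macrophage promoters. Sequences from RefSeq (GRCm38.p6) matched 6 of the 10 genes, Lyz2, C1qb, C1qc, Mrc1, Ccl6 and Cd68, and the 250 bases before each start were searched on both strands. GAGGAA, the core of PU.1 sites, was present in 4 of 6, against 23.3% of 32851 promoters. GAGGAAGT, a longer match that contains GAGGAA, was present in 1, C1qc, against 2.44%, and TTGCNNAA, a C/EBP motif, in 1, Cd68, against 9.56%. Lyz2 and Ccl6 had none of these motifs in their windows. A match is a description of letters, not of binding. The windows are chr4:136886201-136886450 for C1qb and chr4:136892915-136893164 for C1qc, both on the minus strand and read in the direction of the gene; capitals mark GAGGAA in C1qb and the reverse complement of GAGGAAGT in C1qc.
C1qb: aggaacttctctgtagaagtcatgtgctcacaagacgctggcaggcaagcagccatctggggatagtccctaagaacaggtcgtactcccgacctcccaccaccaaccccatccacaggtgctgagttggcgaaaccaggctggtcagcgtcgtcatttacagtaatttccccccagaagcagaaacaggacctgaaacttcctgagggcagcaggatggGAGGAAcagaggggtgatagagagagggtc
C1qc: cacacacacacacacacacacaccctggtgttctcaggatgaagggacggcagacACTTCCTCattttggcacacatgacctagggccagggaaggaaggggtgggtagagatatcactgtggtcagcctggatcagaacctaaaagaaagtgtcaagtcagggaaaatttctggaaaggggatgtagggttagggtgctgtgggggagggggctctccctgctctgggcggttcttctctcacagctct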

How the data were processed

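Poly(A) RNA of 24 libraries in 12 groups of 2 was measured. The deposited values are a signal that the authors made from gene counts: reads were trimmed with Trim Galore 0.6.4, aligned to NCBIM37 with STAR 2.7.9a, counted with HTSeq 0.11.2 and divided by DESeq2 size factors, in a J1 table and a tet-off table. Reads were recovered by dividing by the value of 1 read, which left whole numbers, within 0.01, for 100.0% of the values of lower counts in every library. The 21533 and 24007 genes reaching 2 reads in all were tested with limma 3.58.1 (R 4.3.3, trend) on log2(normalized count + 1). Each table had 1 fit with all its groups, and p-values were adjusted by Benjamini-Hochberg over all genes. A call needed a log2 fold change beyond 0.6 as well as an adjusted p under 0.05. Differences between lines were interaction terms of that fit. Medians use genes above 3 reads in some library of both groups.

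The macrophage genes and all lists were chosen with earlier results of these data known. Genes named are the 10 macrophage genes, genes of the fixed lists (those called, the most abundant and defining markers at 0) and the 15 most alike in pattern. Some list genes were chosen as examples after their values were seen. Alternatives were edgeR 4.0.16 and DESeq2 1.42.0 on recovered reads, a pseudocount of 0.1, TMM scaling, leaving out genes averaging under 10 normalized counts, median centring, a log2 threshold of 1, the 2 groups alone, the replicate number as a block, and leaving out each library, which assumes that the lone library left varies like the other groups. In the J1 comparisons edgeR called 4501, 4369 and 3038 genes, against 4466, 4380 and 2881 in limma. Annotation positions are those of NCBIM37. The tests were tried on simulated data.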

Additional observations from a re-analysis of the deposited data

Results flagged for a closer look

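Differences between tet-off lines were tested for the macrophage genes with interaction terms of limma, adjusted over all genes. With 7 genes in 6 differences, 8 of 42 tests were called, while 10.0% to 22.6% of all genes were called in the same differences, so the share of the macrophage genes lay within the background. The log2 change of Cd68 from ESCs to L-EPSCs was greater in Oct4cKO than in Sox2cKO by 1.02 (adjusted p = 3.9e-06) and than in NanogcKO by 1.85 (adjusted p = 3e-09), and greater in Sox2cKO than in NanogcKO by 0.84 (adjusted p = 2e-05). Its log2 change with Dox was greater in Oct4cKO than in NanogcKO by 1.25 (adjusted p = 1.1e-07) and in Sox2cKO than in NanogcKO by 0.95 (adjusted p = 3.4e-06). The log2 change of Csf1r with Dox was greater in Oct4cKO than in NanogcKO by 4.0 (adjusted p = 0.014), and this was lost without untreated Oct4cKO replicate 1 (2.49), untreated NanogcKO replicate 2 (3.20) or Dox-treated NanogcKO replicate 2 (3.54), in edgeR and with a pseudocount of 0.1. The log2 change of Lyz2 with Dox was greater in Oct4cKO by 2.22 than in Sox2cKO (adjusted p = 0.00466) and by 2.22 than in NanogcKO (adjusted p = 0.00333), which rests on 2 and 5 reads against 0 and was lost in edgeR.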

How the results depend on the processing

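Of the counts of called genes, 291 values under alternatives stayed within 1.5 times the reported count. For the macrophage genes between J1 L-EPSCs and D-EPSCs a log2 threshold of 1 gave 1, and leaving out a library gave 4; for the other macrophage genes the values were 11 and 12 to 15. Against ESCs leaving out a library gave 9 and 24 to 28 in D-EPSCs, and 7 to 8 and 15 to 19 in L-EPSCs. Between tet-off L-EPSCs and ESCs, leaving out a library gave 2 to 4 macrophage genes in Oct4cKO (4 without untreated L-EPSC replicate 1), 1 to 3 in Sox2cKO (1 without ESC replicate 2) and 2 in NanogcKO. In Sox2cKO the count was also 1 in DESeq2, with a mean of at least 10 and with the 2 groups alone, and in NanogcKO 1 with a log2 threshold of 1. With Dox, leaving out a library gave 2 to 4 in Oct4cKO (4 without Dox replicate 1), 0 to 1 in Sox2cKO (0 without Dox replicate 1 or 2) and 1 to 2 in NanogcKO (1 without untreated replicate 1 or Dox replicate 2). The Oct4cKO count was 1 in edgeR, in DESeq2 and with a mean of at least 10, and the Sox2cKO count in limma was 0 with TMM scaling and with a pseudocount of 0.1, and 2 with the replicate block. For the other macrophage genes with Dox, the Sox2cKO count was 9 with a mean of at least 10, and leaving out a library gave 10 to 14 in Sox2cKO and 5 to 6 in NanogcKO (5 without Dox replicate 1). The cause was not tested.

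Alternatives for differences between lines were chosen after seeing the data, as were those for single genes outside the J1 comparisons of the 10 genes. The count of macrophage genes differing in their change to L-EPSCs between Oct4cKO and Sox2cKO was 1, and 2 in edgeR, with a pseudocount of 0.1 and without untreated Oct4cKO replicate 1 (range 1 to 2). For their change with Dox it was 1, and by limma 0 with a mean of at least 10, 0 in edgeR and 2 without Dox-treated Oct4cKO replicate 1. Between Oct4cKO and NanogcKO the Dox count was 3, with 1 in edgeR and 2 to 4 on leaving out a library. Between Sox2cKO and NanogcKO both counts were 1, and 0 with a log2 threshold of 1, and the first was 2 with a pseudocount of 0.1. By reads per M (mega) reads on genes the summed level of the macrophage genes was 9.35 times that of ESCs in D-EPSCs, 6.74 times in L-EPSCs, and 0.721 of D-EPSCs in L-EPSCs. No single-gene value changed sign among called genes, while 185 values lost a call and 23 gained one. Depth limits the tet-off values of Lyz2, C1qa, Adgre1, Ccl6 and Tyrobp, and 2 libraries a group limit every test. Line, table and culture cannot be told apart between J1 and the tet-off lines.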

Other observations

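Xist, the RNA that coats an inactive X chromosome, had 295 and 375 normalized counts in J1 ESCs, 376 and 403 in D-EPSCs, and 391 and 380 in L-EPSCs. The Y-linked gene Ddx3y had 115 and 110 in ESCs, 105 and 104 in D-EPSCs, and 73.0 and 77.0 in L-EPSCs. Xist was not called in any J1 comparison, though its ESC libraries lay below all EPSC libraries. In the tet-off libraries Xist lay between 1.07 and 1297 and Ddx3y between 14.1 and 1926.

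Pf4, a chemokine known from platelets and also made by some macrophages, had 1.8 and 0.922 normalized counts in ESCs, 7.15 and 11.7 in D-EPSCs, and 175 and 175 in L-EPSCs, and was chosen for mention after its values were seen. It was the gene of the chemokine list that was called above its D-EPSC level in L-EPSCs (log2 fold change 4.11, adjusted p = 0.00024).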
